A study of Mus musculus with 4 samples.

Results

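The 50 microRNA precursor transcripts described here were all symbols of a total RNA sequencing table that are named as a numbered Mir gene or as Mirlet7, apart from Mir6236 and the host transcripts whose symbol ends in hg. They were 50 of 12767 symbols, and where a symbol had several of the 25388 transcripts, the transcript with the highest mean RPKM (the read count scaled by transcript length and library total) stood for it. The cells were MLg, a wild-type fibroblast line from mouse lung. The 4 conditions had 1 library each: miR-9-LOF (loss of function by an antagomiR against miR-9-5p), TGFB1 + miR-9-LOF, TGFB1 (with the control antagomiR) and Ctrl (the control antagomiR alone). AntagomiRs are chemically modified oligonucleotides that pair with a mature microRNA and block it, and TGFB1 is a cytokine that drives matrix production in fibroblasts. All cells were thus transfected, and TGFB1 was human recombinant protein. By the sample protocol, cells received 60 nM antagomiR and were harvested after 24 h, with TGFB1 at 5 ng/ml present for 4 h before harvest. The series text instead gives 10 nM and 48 h, and which of these applies was not settled. No condition had a replicate, and no source states whether the libraries came from separate cultures.

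MicroRNAs are transcribed as long primary transcripts, often within the introns or exons of a host gene. The nuclear enzyme Drosha with its partner Dgcr8 cuts out a hairpin, Xpo5 exports it, Dicer1 trims it to a duplex, and a strand of it enters an Argonaute protein. The seed near the 5′ end of the mature strand then pairs with target RNAs. Some hairpins are made in other ways, for example from small spliced introns (mirtrons) or from small nucleolar RNAs, which guide chemical changes of other RNAs. The libraries held total RNA, so a count on a precursor row can come from a host transcript, a primary transcript, a hairpin or another RNA of the same sequence. The rows were short, the shortest of 58 nt and all under 200 nt. The mature microRNAs, miR-9-5p among them, were not measured.

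The mature sequences of the precursors on which the results turn are shown, since their seeds (bases 2 to 8, in capitals) say which microRNAs could share targets. They are from RefSeq on GRCm38.p6, and miR-9-5p, the blocked microRNA, is from the study's supplementary sequence list.
miR-9-5p: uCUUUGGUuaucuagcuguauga
miR-6240: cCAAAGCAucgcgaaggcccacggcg
miR-3069-5p: uUGGCAGUcaagauauuguuuagc
miR-3069-3p: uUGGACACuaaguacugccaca
miR-682: cUGCAGUCacagugaagucug
miR-8094: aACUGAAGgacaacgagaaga
miR-5046: aGCUCCCGccacugugacccccuu
miR-546: aUGGUGGCacggaguc
miR-686: aUUGCUUCccagacggugaaga
miR-5114: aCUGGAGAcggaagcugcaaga
miR-692: aUCUCUUUgagcgccucacuc
miR-7676-3p: uCCGGUGCucacucugcccaca
Of the 50 precursors, 41 matched a mature sequence and 40 a hairpin in the RefSeq table, with 61 different mature names. No mature strand of the 41 had the seed of miR-9-5p. A seed was shared by mature strands of different names only between miR-702-5p and miR-3102-5p, and the 3 loci Mir692-1, Mir692-2 and Mir692-3 gave the same miR-692.

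The precursors were read thinly. Library totals were 14719887 counts in miR-9-LOF, 19019174 in TGFB1 + miR-9-LOF, 21807187 in TGFB1 and 27416665 in Ctrl, and the 50 precursors held 1758, 2247, 1740 and 2554 of these counts in the same order. As shares, in CPM (the count scaled by the library total but not by length), this was 119.4 (113.9 to 125.1, exact Clopper-Pearson 95% interval) in miR-9-LOF, 118.1 (113.3 to 123.1) in TGFB1 + miR-9-LOF, 79.79 (76.08 to 83.63) in TGFB1 and 93.16 (89.58 to 96.84) in Ctrl. The difference lay mostly in Mir6240: without it the shares were 66.71 (62.6 to 71.02), 61.73 (58.25 to 65.36), 56.45 (53.34 to 59.69) and 61.57 (58.67 to 64.58). The median precursor had 8 counts in miR-9-LOF, 9.5 in TGFB1 + miR-9-LOF, 10.5 in TGFB1 and 13 in Ctrl. Over the 4 libraries, 8 precursors had 200 or more counts, 5 had 100 or more but under 200, 8 had 50 or more but under 100 and 29 had 21 to 49. Every transcript of the table had 21 or more counts over the 4 libraries, so a thinly read precursor is listed only if the libraries together reached that sum, to which the deepest library, Ctrl, adds most. Reads carry no molecular identifiers, and all intervals cover counting error only.

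Markers fit the label of a fibroblast line. Of 10 fibroblast markers 9 were in the table, with summed levels of 1699 RPKM in miR-9-LOF, 2230 in TGFB1 + miR-9-LOF, 3017 in TGFB1 and 2277 in Ctrl. The 2 of 8 epithelial markers in the table summed to 0.175 to 0.495 RPKM, 1 of 6 endothelial markers to at most 0.115 RPKM, and 3 of 8 leukocyte markers to 4.87 to 7.11 RPKM. Ribosomal RNA differed between the libraries: Rn45s, the ribosomal RNA precursor, took 27.4% of counts in miR-9-LOF, 21.4% in TGFB1 + miR-9-LOF, 15.3% in TGFB1 and 17.9% in Ctrl. Together with Mir6236 and Lars2 it took 34.1%, 28.9%, 16.4% and 19.2% in the same order. Whether the reads of Mir6236 and Lars2 are ribosomal was not tested. RPKM divides by totals that include them, and without these 3 the median of all symbols tested shifted by more than 0.1 on the log2 scale, to 0.07 against -0.17 in miR-9-LOF over Ctrl and to 0.11 against -0.08 in TGFB1 + miR-9-LOF over TGFB1.

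**Figure D1:**
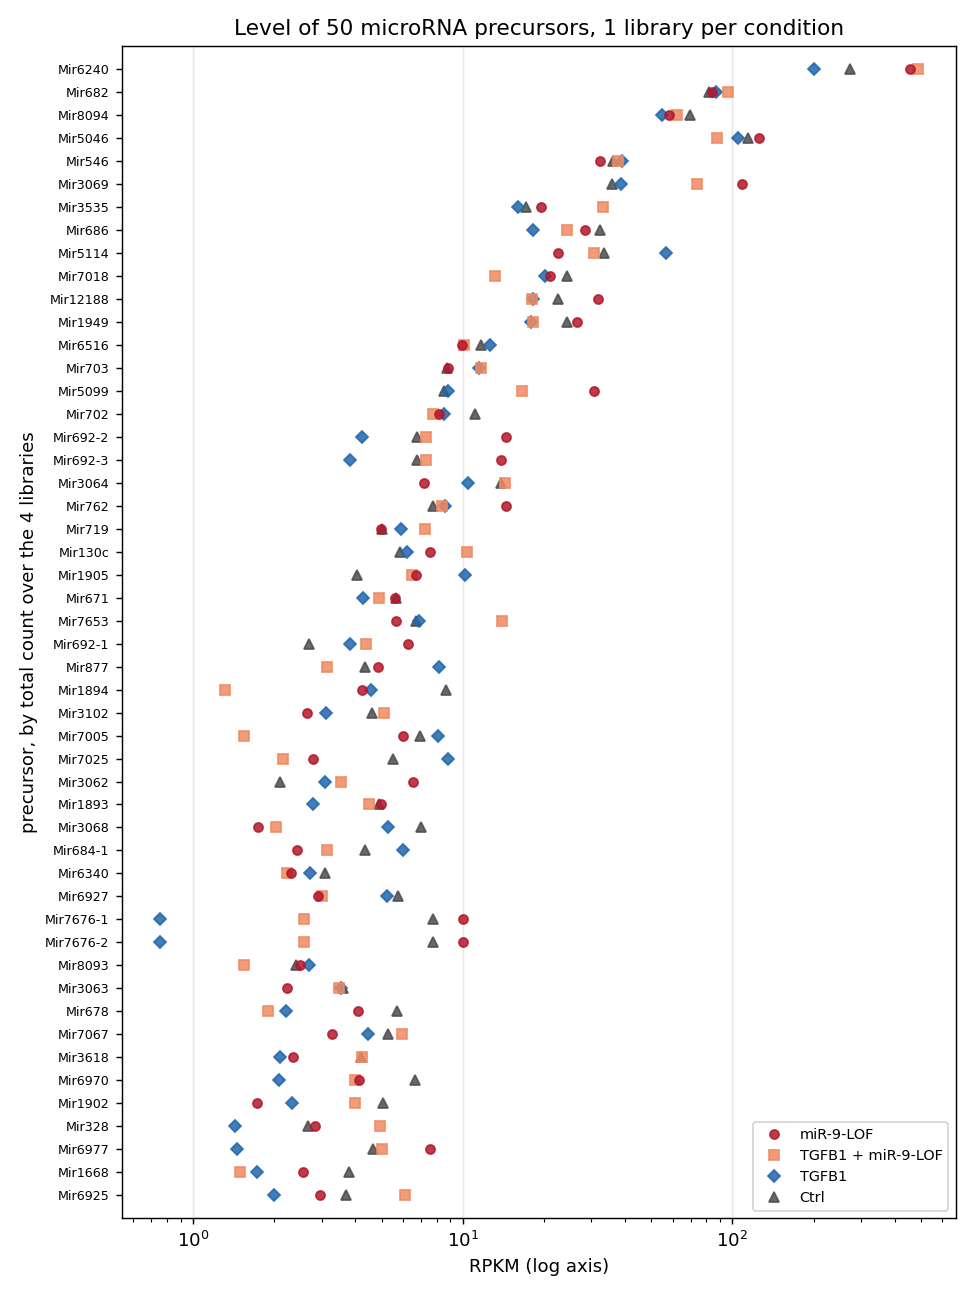
Level of each of the 50 precursors in RPKM (log axis) in the 4 libraries, ordered by total count from top to bottom. Mir6240 lies highest in every library, between 201 and 486 RPKM, and most precursors in the lower part, with 21 to 49 counts in all, lie under 10 RPKM.

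On the scale of RPKM, a level per length, Mir6240 was highest in all 4 libraries, at 454 in miR-9-LOF, 486 in TGFB1 + miR-9-LOF, 201 in TGFB1 and 272 in Ctrl. Its row held 776 counts in miR-9-LOF, 1073 in TGFB1 + miR-9-LOF, 509 in TGFB1 and 866 in Ctrl. Next in total count came Mir682, Mir8094, Mir5046, Mir546, Mir3069, Mir3535 and Mir686. The lowest levels were 1.72 RPKM in miR-9-LOF, 1.31 in TGFB1 + miR-9-LOF, 0.752 in TGFB1 and 2.10 in Ctrl. No precursor was at 0 counts in any library. Of the widely studied families looked for (miR-9, let-7, miR-21, miR-29, miR-199, miR-143, miR-145, miR-17 to miR-92 and others), 0 members were among the 50.

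Most of the precursors lie in genes. By the GENCODE M21 annotation of GRCm38 (mm10), 22 hairpins lie wholly in exons, 10 partly in an exon and 15 in introns, and 3 (Mir5099, Mir6240 and Mir692-1) lie in no annotated host. The 22 exonic ones divide into 8 in a 3′ UTR, 2 in a 5′ UTR, 9 in coding sequence and 3 in exons of non-coding transcripts. No 2 precursors lie within 10 kb of each other on a strand, so none form a cluster. In 7 cases the host runs on the opposite strand, and as reads were counted on both strands the reads of such a pair cannot be told apart. A host in the table was found for 42 precursors. A read in an exonic hairpin can count for the host too, so the values of such a pair can share reads. For Mir6516 this did not hold for every read, since it had 30 counts in TGFB1 and its host Snhg20 had 24.

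Relative to their hosts, the listed exonic precursors were mostly read about as densely as the host or more, and the listed intronic ones mostly less. The ratio of the precursor's RPKM to the host's, averaged over the libraries, had a median of 1.33 over 20 exonic precursors (range 0.258 to 24.2), 0.456 over 10 partly exonic ones (0.0741 to 13.8) and 0.358 over 12 intronic ones (0.0403 to 10.1). The precursor exceeded its host in all 4 libraries in 12 of 20 exonic, 3 of 10 partly exonic and 2 of 12 intronic cases, and was below it in all 4 in 5, 7 and 9 of them. The intronic precursors above their host throughout were Mir684-1, on the strand opposite to Dusp19, and Mir3068 in Alkbh1. These hosts were low, at 0.280 to 0.692 RPKM for Dusp19 and 0.700 to 1.46 for Alkbh1. Short rows need a raised mean RPKM to reach the count sum required for listing. Listing thus favours ratios above 1 where the host is low, as for the exonic host Csf2rb2 at 0.0626 to 0.386 RPKM. How many of the cases above their host rest on this was not tested. The class medians differed little between libraries, at 1.58 in miR-9-LOF, 1.6 in TGFB1 + miR-9-LOF, 1.19 in TGFB1 and 1.37 in Ctrl for exonic precursors, and 0.421, 0.305, 0.287 and 0.313 for intronic ones in the same order.

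**Figure D2:**
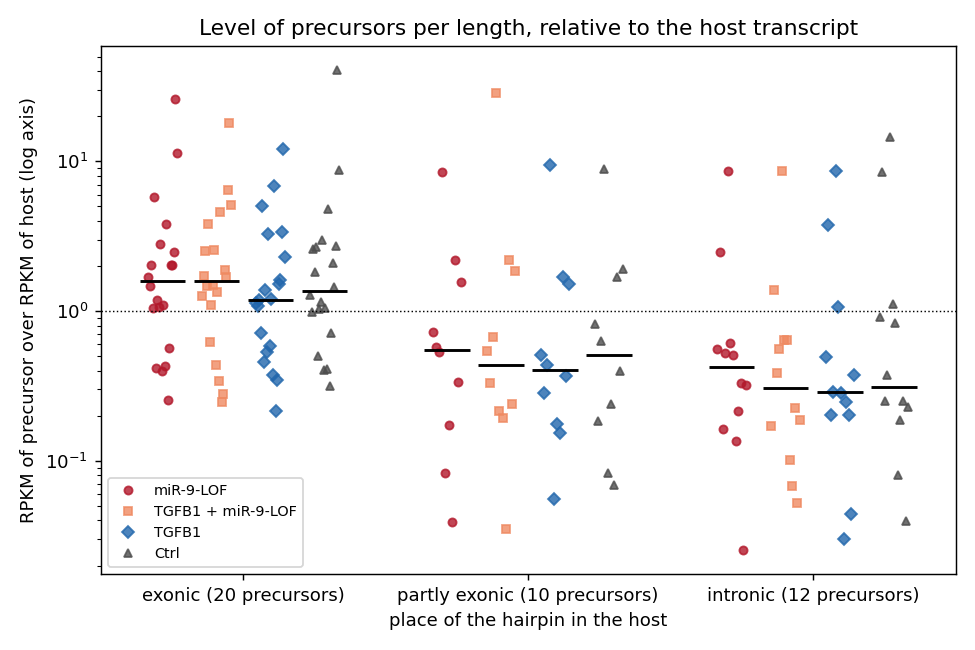
RPKM of each precursor divided by the RPKM of its host (log axis), by the place of the hairpin in the host and by library, with a bar at the median of each column. Exonic precursors centre near the dotted line of equal level, with medians of 1.19 to 1.6, and intronic ones below it, at 0.287 to 0.421.

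Some rows hold other small RNAs. In GENCODE, 5 of the 50 hairpins overlap a small nucleolar or Cajal body RNA gene on the same strand. The hairpin of Mir3069 lies with all of its 65 bases in Scarna13, a small Cajal body-specific RNA, and that of Mir3535 encloses the 80-base snoRNA gene Gm24148 within an intron of Ncl, the gene of nucleolin. Mir6516 shares 88 bases with the scaRNA gene Gm26083 within Snhg20, and Mir3068 and Mir1949 share 76 and 66 bases with genes annotated as snoRNAs.

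Other rows resemble abundant messenger RNAs. Of the 40 hairpins, 31 had an exact stretch of 30 nt or more in a GENCODE transcript, 27 of them in the host and 11 in another gene. A match in the host is at the same locus, and some of the 11 are in genes that overlap the precursor. Where the match is at another locus, trimmed reads within the stretch fit either place. How many reads this concerns was not tested. The hairpins of Mir692-2 and Mir682 are shown because each holds such a stretch of an abundant mRNA, in capitals. Mir692-2 lies at chr4:125504749-125504857 (+), in an intron of Grik3, and shares the stretch with Ftl1, the ferritin light chain. Mir682 lies at chr13:75645046-75645141 (+) and shares it with Rpl37a, a ribosomal protein gene.
Mir692-2: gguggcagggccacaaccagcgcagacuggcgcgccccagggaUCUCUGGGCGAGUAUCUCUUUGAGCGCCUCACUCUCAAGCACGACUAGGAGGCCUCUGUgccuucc
Mir682: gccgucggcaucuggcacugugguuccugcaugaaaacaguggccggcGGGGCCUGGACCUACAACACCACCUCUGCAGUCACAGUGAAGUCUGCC
The stretches were 59 bases for Mir692-2 and 48 for Mir682, and Mir703 shared 47 with Eef1a1, an elongation factor of translation. Mir682 lies over its whole length in Gm4149, an annotated pseudogene. All 109 bases of Mir692-2 also occur in Ftl1-ps1, the ferritin copy whose exon holds Mir692-3. The counts of Mir692-2 and Mir692-3 differed by at most 1 in every library, so the pair is not 2 separate observations.

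To see what blocking miR-9 did to these transcripts in unstimulated cells, miR-9-LOF was compared with Ctrl. A transcript is said to have risen or fallen where the log2 ratio of RPKM + 1 passed 0.58, the limit of the study, which is a ratio of 1.49 for well-expressed genes. Of the 50 precursors, all of which had a mean RPKM of 1 or more, 10 rose and 9 fell, against 2.03% and 6.72% of the 9291 symbols tested. Several that fell, among them Mir1894 and Mir3068, reached the 21 counts needed for listing only with Ctrl, which favours falls against it. With totals that leave out Rn45s, Mir6236 and Lars2 the split was 14 and 4, and with TMM or RLE factors 11 and 6. The counting interval of the ratio also excluded 1 for 6 that rose and 0 that fell, against 1.88% and 6.51% of all symbols. In bulk RNA, fewer cells with a transcript and less of it per cell cannot be told apart. The median log2 change was -0.08 over the precursors and -0.17 over all symbols. Short or thinly read transcripts rose past the limit more often in general, while their falls were near the share over all symbols. Of 85 other transcripts of 200 nt or shorter 38.8% rose and 7.06% fell, and of 493 other symbols with 200 or fewer counts 7.91% rose and 6.29% fell. With 1 library a condition there was no test between conditions, and no p-value is given.

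The 6 with an interval above 1 were Mir6240, Mir3069, Mir5099, Mir692-2, Mir692-3 and Mir3062, or 5 with the Mir692 pair taken once. Mir5099 had the largest increase, with 33 counts in miR-9-LOF and 17 in Ctrl (30.7 and 8.49 RPKM, ratio 3.62, 1.96 to 6.92). Mir3069 had 102 counts in miR-9-LOF and 63 in Ctrl (108 and 35.9 RPKM, ratio 3.02, 2.18 to 4.20). Both are thus above Ctrl by more than the limit although the miR-9-LOF library is the shallowest. Mir6240 reached a ratio of 1.67 (1.51 to 1.84). Mir692-2 had 23 counts in miR-9-LOF and 20 in Ctrl (ratio 2.14, 1.12 to 4.11), and Mir692-3 had 22 and 20 (ratio 2.05, 1.07 to 3.96). Mir3062, in the purine synthesis gene Pfas, was named for its call after the values were seen and rests on 10 counts in miR-9-LOF and 6 in Ctrl (ratio 3.10, 1.02 to 10.4). The ratio of its host Pfas was 0.995 (0.922 to 1.07). Without its counts in miR-9-LOF, Mir3062 would not have reached the count sum needed for listing. Its rise over Ctrl is thus partly built into its being listed, and it is not read as a difference from Pfas.

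With TGFB1 present, TGFB1 + miR-9-LOF was compared with TGFB1. Here 16 precursors rose and 9 fell, against 2.06% and 1.48% of 9535 symbols (20 and 7 without those 3 genes in the totals), and the interval excluded 1 for 3 that rose and 3 that fell, against 1.88% and 1.38%. Several that rose, among them Mir328 and Mir6925, reached the 21 counts needed for listing only with TGFB1 + miR-9-LOF. Several that fell, among them Mir3068 and Mir7025, did so only with TGFB1. Listing thus favours these calls, and the shares are not read as a difference. The median log2 change was 0.16 over the precursors and -0.08 over all symbols. Of the 85 other short transcripts 32.9% rose and 8.24% fell. Mir6240 had a ratio of 2.42 (2.17 to 2.69). Mir3535 had 92 counts in TGFB1 + miR-9-LOF and 51 in TGFB1 (33.1 and 16.0 RPKM, ratio 2.07, 1.45 to 2.97). Mir3069 had 90 counts in TGFB1 + miR-9-LOF and 54 in TGFB1 (73.9 and 38.7 RPKM, ratio 1.91, 1.35 to 2.73). These 3 were the ones that rose with an interval above 1. Mir5114, in the 3′ UTR of the fatty acid desaturase gene Scd2, fell to 35 counts in TGFB1 + miR-9-LOF, against 74 in TGFB1 (30.7 and 56.6 RPKM, ratio 0.542, 0.352 to 0.821). The other falls with an interval below 1 rest on few reads. Mir7025, partly in an exon of the growth factor receptor gene Pdgfra, had 3 counts in TGFB1 + miR-9-LOF and 14 in TGFB1 (ratio 0.246, 0.0453 to 0.880). Mir7005, in an intron of the laminin gene Lama5 and named for its call after the values were seen, had 2 and 12 (ratio 0.191, 0.0208 to 0.858).

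**Figure D3:**
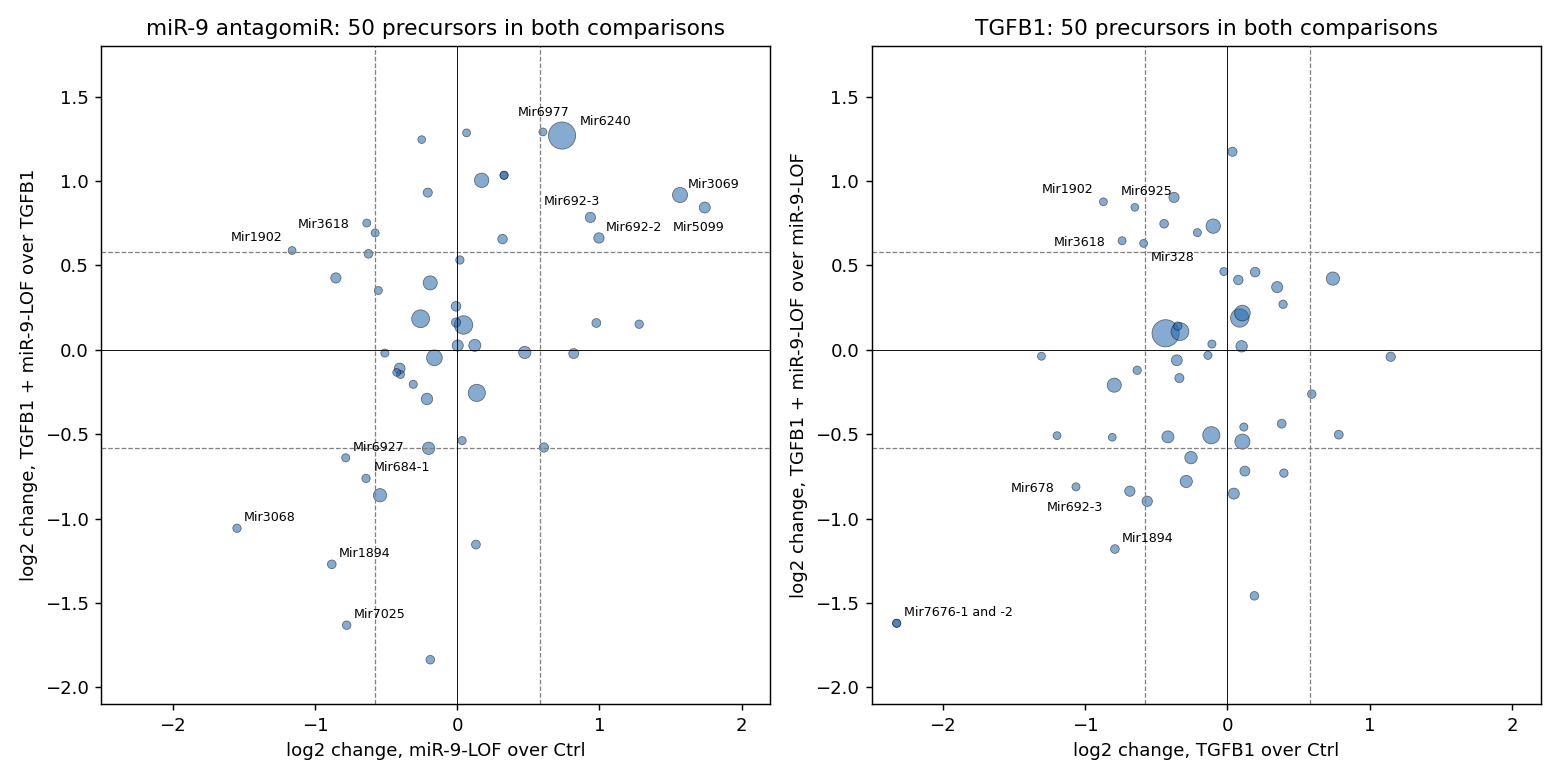
Log2 change of RPKM + 1 of each precursor in both comparisons of a treatment, with dashed lines at the limit of 0.58 and larger points for more counts; names mark precursors past the limit on both axes. For the antagomiR (left) 6 precursors lie past the limit at upper right and 5 at lower left, and for TGFB1 (right) 0 at upper right and 5 at lower left.

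The comparisons of the antagomiR without and with TGFB1 share no library, so they could be set against each other. Mir3069, Mir5099, Mir6240, Mir692-2, Mir692-3 and Mir6977 rose in both, which is 12% of the 50 precursors against 1.22% of 9132 symbols. With Mir692-2 standing for its pair with Mir692-3, and the Mir7676 pair also taken once, it was 5 of 48 (10.4%). Mir1894, Mir3068, Mir684-1, Mir6927 and Mir7025 fell in both, which is 10.0% against 0.887%. Each of these precursors reached the 21 counts needed for listing only with its counts in Ctrl. A low value against Ctrl is thus partly built into their being listed, as is one against TGFB1 for all but Mir1894. The shares are not read as a difference. A further 2 had calls in opposite directions, and 32 of 50 changed with the same sign, against 6229 of 9132 symbols. Among other symbols with 200 or fewer counts, 3.12% rose in both and 0.719% fell in both. The precursors that fell in both were thinly read throughout. Mir1894 had 5 counts in miR-9-LOF and 19 in Ctrl, and 2 in TGFB1 + miR-9-LOF and 8 in TGFB1. Mir3068 had 2 and 15 counts, and 3 and 9, in the same order. Mir684-1 had 3 and 10, and 5 and 11, Mir6927 had 3 and 11, and 4 and 8, and Mir7025 had 3 and 11, and 3 and 14. The intervals of these ratios reached 1 in both comparisons for all but Mir7025 with TGFB1. Of those that rose in both, Mir6977 had 7 counts in miR-9-LOF and 8 in Ctrl, and 6 in TGFB1 + miR-9-LOF and 2 in TGFB1, and both of its intervals reached 1. Without its counts in miR-9-LOF, or in TGFB1 + miR-9-LOF, Mir6977 would not have reached the 21 needed for listing. Mir5099 with TGFB1 had 23 counts in TGFB1 + miR-9-LOF and 14 in TGFB1 (ratio 1.88, 0.929 to 3.96), Mir692-2 had 15 and 10 (ratio 1.72, 0.723 to 4.28) and Mir692-3 had 15 and 9 (ratio 1.91, 0.783 to 4.95). Mir3069 and Mir6240 were thus the only precursors with intervals above 1 in both comparisons.

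Mir6240 is a single locus, and its hairpin is shown because its row held 3224 of all counts on the 50 precursors, with the mature arm in capitals. It lies at chr5:114851948-114852064 (+) on GRCm38, in no annotated gene other than itself.
Mir6240: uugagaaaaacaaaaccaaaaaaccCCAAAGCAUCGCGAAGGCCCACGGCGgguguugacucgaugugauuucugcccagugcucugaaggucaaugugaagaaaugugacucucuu
No GENCODE transcript of another gene shared an exact stretch of 30 nt with it. Beside it, Rn45s had ratios of 1.54 in miR-9-LOF over Ctrl and 1.40 in TGFB1 + miR-9-LOF over TGFB1, the second of them inside the limit. In the same comparisons Mir6236, left out of the 50, had 6.66 and 11.9, and Lars2 had 3.20 and 3.41. The sequence of ribosomal RNA was not used here, and the part of ribosomal RNA reads in the values of Mir6240 was not tested.

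The rise of Mir3069 went with that of the small RNA that contains it. The hairpin lies at chr12:105031077-105031141 (-), and both mature arms are in capitals.
Mir3069: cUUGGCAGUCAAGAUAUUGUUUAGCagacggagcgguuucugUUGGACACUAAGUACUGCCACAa
Scarna13 had 367 counts in miR-9-LOF and 261 in Ctrl (91.0 and 34.7 RPKM, ratio 2.62, 2.23 to 3.08), and 353 in TGFB1 + miR-9-LOF and 166 in TGFB1 (67.7 and 27.8 RPKM, ratio 2.44, 2.02 to 2.95). The counts of Mir3069 amount to 27.8%, 25.5%, 32.5% and 24.1% of those of Scarna13 in miR-9-LOF, TGFB1 + miR-9-LOF, TGFB1 and Ctrl. After subtracting them, the ratio of the rest of Scarna13 was 2.49 (2.07 to 3.01) and 2.69 (2.15 to 3.39), so the rest of the host rose past the limit in both. Snhg10, which overlaps Scarna13, had only 6, 5, 5 and 8 counts in the same order of libraries. How much of the row of Mir3069 is Scarna13 was not tested.

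Ftl1, with which the miR-692 hairpins share sequence, had 4925 counts in miR-9-LOF and 6408 in Ctrl (ratio 1.43, 1.38 to 1.49), and 5506 in TGFB1 + miR-9-LOF and 3579 in TGFB1 (ratio 1.76, 1.69 to 1.84), within the wide intervals of Mir692-2 and Mir692-3 in both comparisons. In miR-9-LOF over Ctrl Ftl1 was inside the limit, at 0.52 on the log2 scale, whereas both of these rows passed it. Mir692-1 had 10 counts in miR-9-LOF and 8 in Ctrl (ratio 2.33, 0.827 to 6.79), and 9 in TGFB1 + miR-9-LOF and 9 in TGFB1 (ratio 1.15, 0.403 to 3.26). The part of Ftl1 reads in these rows was not tested. Mir682 in contrast had ratios near 1, with 118 counts in miR-9-LOF and 213 in Ctrl (84.4 and 81.8 RPKM, ratio 1.03, 0.817 to 1.298), and 174 in TGFB1 + miR-9-LOF and 180 in TGFB1 (96.3 and 86.9 RPKM, ratio 1.11, 0.895 to 1.37). The ratios of Rpl37a were 0.958 and 0.852.

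For TGFB1, the TGFB1 library was compared with Ctrl. In this comparison 4 precursors rose and 14 fell, against 2.68% and 2.92% of 9527 symbols, and the interval excluded 1 for 2 that rose and 3 that fell, against 2.56% and 2.76%. Several that fell, among them Mir678 and the Mir7676 pair, reached the 21 counts needed for listing only with Ctrl, which favours falls against it. The median log2 change was -0.23 over the precursors and -0.01 over all symbols, while of the 85 other short transcripts 37.6% rose and 8.24% fell. Mir5114 rose with 74 counts in TGFB1 and 55 in Ctrl (56.6 and 33.4 RPKM, ratio 1.69, 1.18 to 2.44). Mir1905, on the strand opposite to the RNA-binding protein gene Mex3a and named for its call after the values were seen, had 18 counts in TGFB1 and 9 in Ctrl (ratio 2.51, 1.07 to 6.35). Mir686, in the coding sequence of the proteasome subunit gene Psmb5, fell to 43 counts in TGFB1, against 96 in Ctrl (18.3 and 32.4 RPKM, ratio 0.563, 0.384 to 0.815). Mir7676-1 and Mir7676-2 had 1 count in TGFB1 and 13 in Ctrl (ratio 0.0967, 0.00228 to 0.644). Both hairpins lie in a stretch that the 2 host genes share exactly, all of their counts were equal, and the pair counts as 1 observation. They lie in Csf2rb2 and Csf2rb, paralogous receptor genes whose ratios, the shared reads included, were 0.328 (0.109 to 0.829) and 0.369 (0.244 to 0.544). The counts of Mir7676-1 amount to 16.7% of those of Csf2rb2 in TGFB1 and 56.5% in Ctrl. Without them Csf2rb2 had 5 counts in TGFB1 and 10 in Ctrl, and the interval of its ratio included 1 (0.629, 0.169 to 2.02). Csf2rb without the counts of Mir7676-2 had 33 and 103 (ratio 0.403, 0.263 to 0.601). Mir6240 had a ratio of 0.739 (0.661 to 0.825) and Mir8094, over the RNA helicase gene Ddx39b, of 0.791 (0.635 to 0.982), both inside the limit.

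TGFB1 after blocking miR-9, that is TGFB1 + miR-9-LOF over miR-9-LOF, gave 9 precursors that rose and 12 that fell, against 7.13% and 2.48% of 9345 symbols. The split was 9 and 19 without Rn45s, Mir6236 and Lars2 in the totals, and 7 and 18 with TMM or RLE factors. The interval excluded 1 for 1 that rose and 2 that fell, against 6.89% and 2.33%, and the median log2 change was -0.05 over the precursors and 0.05 over all symbols. Of the other short transcripts 23.5% rose and 4.71% fell. Mir3535 rose with 92 counts in TGFB1 + miR-9-LOF and 42 in miR-9-LOF (33.1 and 19.5 RPKM, ratio 1.70, 1.16 to 2.50). Mir5099 fell to 23 counts, against 33 in miR-9-LOF (ratio 0.539, 0.302 to 0.947), and Mir12188, in the 3′ UTR of the chloride transporter gene Clcn7, to 25, against 34 in miR-9-LOF (ratio 0.569, 0.325 to 0.982). Mir3069 (ratio 0.683, 0.509 to 0.916) and Mir5046 (ratio 0.702, 0.527 to 0.932) were below 1 by their intervals but inside the limit. Mir6240 had a ratio of 1.07 (0.975 to 1.18).

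The comparisons of TGFB1 without and with the antagomiR also share no library. In both, 0 precursors rose, against 1.78% of 9209 symbols, and 5 fell (10.0% against 1.16%): Mir1894, Mir678, Mir692-3, Mir7676-1 and Mir7676-2, the last pair with the same reads. With both pairs taken once, Mir692-2 kept, it was 3 of 48 (6.25%). Apart from Mir692-3, each precursor that fell in both reached the 21 counts needed for listing only with its counts in Ctrl. This favours a fall in TGFB1 over Ctrl. Mir678 and the Mir7676 pair likewise needed their counts in miR-9-LOF to be listed. The shares are not read as a difference. Mir678, in the 3′ UTR of the arginine methyltransferase gene Prmt2, had 4 counts in TGFB1 and 13 in Ctrl, and 3 in TGFB1 + miR-9-LOF and 5 in miR-9-LOF. Mir7676-1 had 3 counts in TGFB1 + miR-9-LOF and 9 in miR-9-LOF. Mir692-3 had 9 counts in TGFB1 and 20 in Ctrl, and 15 in TGFB1 + miR-9-LOF and 22 in miR-9-LOF. Apart from the Mir7676 pair without the antagomiR, the intervals of all of these ratios reached 1. Calls in opposite directions occurred in 4 precursors.

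**Figure D4:**
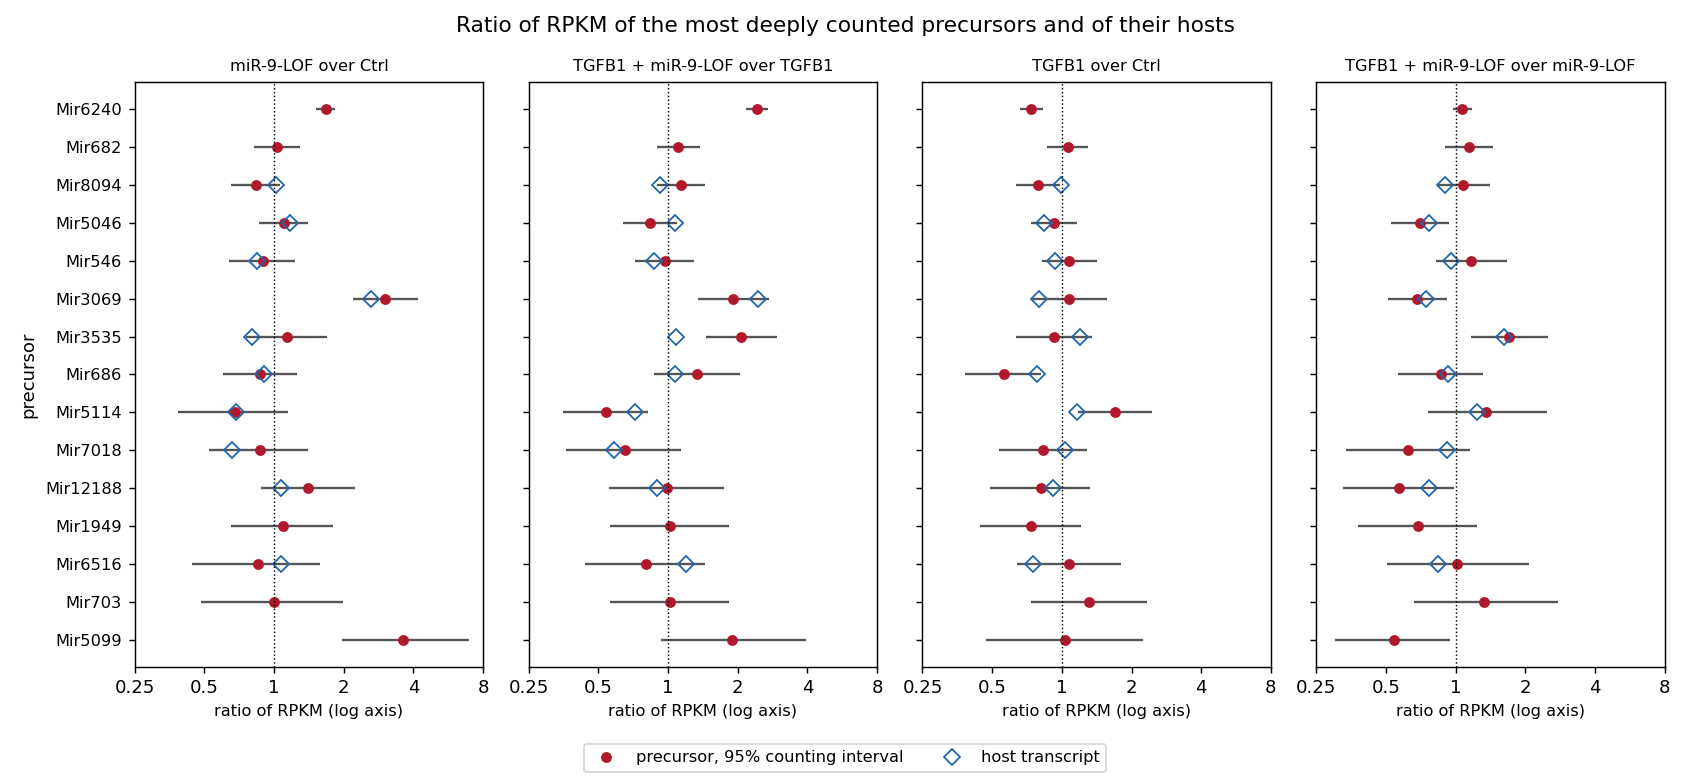
Ratio of RPKM (log axis) in the 4 comparisons for the 15 precursors with 87 or more counts over the libraries (points), with exact 95% counting intervals (lines), and the ratio of the host transcript where it is in the table (diamonds). Most diamonds lie within the line of their precursor; Mir3535 in TGFB1 + miR-9-LOF over TGFB1 lies to the right of its host.

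Whether a precursor moved apart from its host was read from the interval of its ratio. The host's ratio lay within the precursor's interval for 41 of 42 pairs in miR-9-LOF over Ctrl, 40 in TGFB1 + miR-9-LOF over TGFB1, 40 in TGFB1 over Ctrl and 42 in TGFB1 + miR-9-LOF over miR-9-LOF. Most intervals were wide and exonic pairs can share reads, so this does not show that the pairs moved alike. For 15 exonic pairs on 1 strand the precursor's counts could be subtracted from the host's, taking all of them to be in the host's row. Mir6516 in Snhg20 was left out, because its counts in TGFB1 exceeded those of the host. The ratio of the rest of the host lay within the precursor's interval for 15 of them in each comparison of the antagomiR, for 12 in TGFB1 over Ctrl (14 with the shared reads) and for 14 in TGFB1 + miR-9-LOF over miR-9-LOF (15 with the shared reads). Outside lay Mir3069, Mir5114 and Mir686 in TGFB1 over Ctrl, and Mir7653, in the 5′ UTR of Tlcd1 and named after its values were seen, in TGFB1 + miR-9-LOF over miR-9-LOF. Over the hosts themselves, of which 37 or 38 of 42 were tested, 1 rose and 2 fell in miR-9-LOF over Ctrl, 1 rose and 1 fell in TGFB1 + miR-9-LOF over TGFB1, 0 rose and 0 fell in TGFB1 over Ctrl, and 2 rose and 0 fell in TGFB1 + miR-9-LOF over miR-9-LOF. Their median log2 changes were -0.16, -0.14, -0.05 and -0.12. Over all symbols the shares risen and fallen were 2.03% and 6.72%, 2.06% and 1.48%, 2.68% and 2.92%, and 7.13% and 2.48%. The medians over all symbols were -0.17, -0.08, -0.01 and 0.05. Among the hosts, the rises were those of Scarna13 in both comparisons of the antagomiR, and of Ncl and Ddx5 with TGFB1 after the antagomiR. The falls were those of Hspg2, a basement membrane proteoglycan gene and host of Mir7018, in both comparisons of the antagomiR, and of Ddx5 without TGFB1. The intervals of precursor and host were apart only for Mir3535 and Mir7025, both in TGFB1 + miR-9-LOF over TGFB1. Ncl, the host of Mir3535, had 9348 counts in TGFB1 + miR-9-LOF and 9940 in TGFB1 (59.6 and 55.3 RPKM, ratio 1.08, 1.05 to 1.11), against the ratio of 2.07 of the intronic row. In TGFB1 + miR-9-LOF over miR-9-LOF both rose, with a ratio of 1.61 (1.56 to 1.67) for Ncl. Another snoRNA of the Ncl introns, Snord82, had 113 counts in TGFB1 + miR-9-LOF and 89 in TGFB1 (ratio 1.46, 1.09 to 1.94). In TGFB1 over Ctrl Snord82 had a ratio of 1.45 (1.06 to 2.00), against 0.929 (0.634 to 1.35) for Mir3535. The snoRNA Snora75 had only 5 counts in TGFB1 + miR-9-LOF and 5 in TGFB1 (ratio 1.15, 0.264 to 4.98). The share of the snoRNA Gm24148 in the row of Mir3535 was not tested. Pdgfra had 1941 counts in TGFB1 + miR-9-LOF and 2066 in TGFB1 (ratio 1.08, 1.01 to 1.15), while Mir7025 had 3 and 14. Without its counts in TGFB1, Mir7025 would not have reached the count sum needed for listing. Its low value against TGFB1 is thus partly built in, and its separation from Pdgfra is not read as a difference.

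Among exonic precursors, Mir5114 makes up only 0.440% to 0.642% of the counts of Scd2, so the host's ratio is nearly free of its reads. Scd2 had 7259 counts in TGFB1 + miR-9-LOF and 11529 in TGFB1 (ratio 0.722, 0.701 to 0.744), inside the interval of Mir5114, and 11529 in TGFB1 and 12406 in Ctrl (ratio 1.17, 1.14 to 1.20), just outside it. Mir686 makes up 18.8% to 26.1% of Psmb5, and the rest of Psmb5 had a ratio of 0.860 (0.710 to 1.04) in TGFB1 over Ctrl, outside the interval of Mir686. Mir546, in the 3′ UTR of the phosphatase gene Ctdsp2, had 57 and 119 counts in miR-9-LOF and Ctrl (ratio 0.892, 0.639 to 1.23), with 0.844 (0.796 to 0.893) for the rest of Ctdsp2. Mir5046, in the 3′ UTR of the kinase gene Rps6ka4, had 107 and 181 counts in the same libraries (ratio 1.10, 0.859 to 1.41), with 1.17 (1.11 to 1.24) for the rest of its host. Neither of these passed the limit in any comparison.

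Few of the genes that make microRNAs passed the same limit, and few of all symbols did. Of 22 listed genes 19 were in the table, and 15 or 16 were tested in each comparison. In miR-9-LOF over Ctrl 0 of 15 rose and 1 fell, against 2.03% and 6.72% of all symbols. The median log2 change was -0.33 against -0.17 over all symbols. The one that fell was Ddx5, a helicase that assists Drosha and the host of Mir3064, with 700 counts in miR-9-LOF and 2117 in Ctrl (ratio 0.616, 0.565 to 0.671). Mir3064 itself fell on 7 counts in miR-9-LOF and 25 in Ctrl, with an interval that reached 1 (ratio 0.522, 0.190 to 1.24). Dgcr8, whose 5′ UTR holds Mir3618, had a ratio of 0.606 (0.496 to 0.737) but was inside the limit on the log2 scale, at -0.53. Drosha had 7.88 RPKM in miR-9-LOF and 10.2 in Ctrl (ratio 0.776, 0.699 to 0.859). Ago2 (ratio 0.691, 0.629 to 0.757) and Dicer1 (ratio 0.655, 0.5135 to 0.829) were also below 1 by their intervals. Dicer1 was not tested against the limit, as its mean RPKM was under 1. Intervals below 1 were also those of Srrt, Ddx17, Xpo5, Ran, Ago3, Tnrc6a, Tnrc6b, Tnrc6c and Tut7. Those of Tarbp2, Prkra, Ago1, Dis3l2 and Tut4 included 1. All of these ratios use totals that include Rn45s, Mir6236 and Lars2. Without these 3 the median of all symbols moved from -0.17 to 0.07 in miR-9-LOF over Ctrl, and the ratios of these genes would be higher. How many intervals would then stay below 1 was not tested. In TGFB1 + miR-9-LOF over TGFB1 and in TGFB1 over Ctrl 0 rose and 0 fell, with medians of -0.15 and 0.10. Over all symbols the shares risen and fallen were 2.06% and 1.48%, and 2.68% and 2.92%. In TGFB1 + miR-9-LOF over miR-9-LOF 2 rose, Ddx5 (ratio 1.57, 1.43 to 1.72) and the Argonaute partner Tnrc6a (ratio 1.90, 1.59 to 2.29), and 0 fell. Of all symbols 7.13% rose and 2.48% fell there. Comparisons that share a library are not independent.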

How the data were processed

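MLg total RNA libraries (1 per condition) were analysed from 1 table. The authors trimmed single-end reads (Trimmomatic 0.36), mapped them to mm10 by Bowtie2 and used HOMER to count over RefSeq exons on both strands (versions not given in the sources used here). Deposited values per transcript are raw read counts and RPKM, which the authors computed in edgeR and to which they added 1. The deposited log2 fold changes and an RPKM sum hold the authors' comparisons and were not used.

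RPKM (deposited value minus 1) gave log2(RPKM + 1) changes, called at 0.58 where the mean RPKM of both libraries was 1 or more. This scale understates changes of low transcripts. Ratios have exact conditional binomial 95% intervals (scipy 1.17.1, Python 3.11.15), tested on simulated data. TMM and RLE factors were from edgeR 4.0.16. An additive fit was not run, as no condition had a replicate. Places of hairpins came from GENCODE M21 and RefSeq on GRCm38, the build of mm10, since the table holds no coordinates; exact matches of hairpins were sought in GENCODE transcripts. Named precursors had 200 or more counts, were among the 5 largest changes each way with 50 or more counts and an interval excluding 1, passed the limit in both comparisons of a treatment, or belonged to listed families; their hosts were named too. Members, lists and rules were chosen with earlier results of these data known.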

Additional observations from a re-analysis of the deposited data

Results flagged for a closer look

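Calls in opposite directions in the 2 comparisons of a treatment were the reason to single out 4 precursors, all chosen after their values were seen and all with 24 or fewer counts over the 4 libraries. Log2 changes of RPKM + 1 are given, and the differences between comparisons were not tested. Mir1902, in the 3′ UTR of Hipk3, changed by -1.16 in miR-9-LOF over Ctrl (2 and 11 counts) and by 0.588 in TGFB1 + miR-9-LOF over TGFB1 (6 and 4 counts). Its change with TGFB1 was -0.872 in TGFB1 over Ctrl and 0.876 with the antagomiR present (6 counts in TGFB1 + miR-9-LOF and 2 in miR-9-LOF). Mir3618, in the 5′ UTR of Dgcr8, changed by -0.635 in miR-9-LOF over Ctrl (3 and 10 counts), by 0.751 in TGFB1 + miR-9-LOF over TGFB1 (7 and 4 counts) and by -0.740 in TGFB1 over Ctrl. With the antagomiR present, TGFB1 changed it by 0.646. Mir328, opposite to Elmo3, changed by -0.589 in TGFB1 over Ctrl (3 and 7 counts) and by 0.630 with the antagomiR present (9 counts in TGFB1 + miR-9-LOF and 4 in miR-9-LOF). Mir6925, in Kif1c, changed by -0.651 in TGFB1 over Ctrl (3 and 7 counts) and by 0.844 with the antagomiR present (8 counts in TGFB1 + miR-9-LOF and 3 in miR-9-LOF). The counts of Mir6925 were equal to those of Stox2 in all 4 libraries, and the intervals of all of these ratios reached 1.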

How the results depend on the processing

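Counts of calls depended on thin reads. Numbers are given as risen and fallen in the order miR-9-LOF over Ctrl, TGFB1 + miR-9-LOF over TGFB1, TGFB1 over Ctrl and TGFB1 + miR-9-LOF over miR-9-LOF, against 10 and 9, 16 and 9, 4 and 14, and 9 and 12. A log2 limit of 1 gave 3 and 2, 7 and 5, 1 and 5, and 1 and 4. Precursors with 50 or more counts in the libraries compared gave 3 and 0, 3 and 2, 1 and 1, and 1 and 2. The limit with the counting interval gave 6 and 0, 3 and 3, 2 and 3, and 1 and 2. Totals without Rn45s, Mir6236 and Lars2 gave 14 and 4, 20 and 7, 3 and 15, and 9 and 19, so the split turned from near even to mostly risen in miR-9-LOF over Ctrl. TMM and RLE factors each gave 11 and 6, 18 and 7, 4 and 13, and 7 and 18, and centring on the median 11 and 6 in miR-9-LOF over Ctrl. A pseudocount of 0, no filter on mean RPKM and counting the Mir7676 pair as 1, with or without the pair of Mir692-2 and Mir692-3 as 1 (both added after the data were seen), kept every count within 1.5 times, and no precursors clustered within 10 kb. All precursors past both limit and interval stayed past the limit under the 3 scalings, centring and a pseudocount of 0. Of 440 alternative values for 22 named precursors, 434 lay within the counting interval, which is wide for thin reads, and 6 (all Mir6240) outside it. A switch of sign past the limit occurred in 0, but no setting moved values far enough for one. Calls could still be lost. Without Rn45s, Mir6236 and Lars2 in the totals, Mir684-1 went from -0.641 to -0.445 in miR-9-LOF over Ctrl, and Mir7025 from -0.777 to -0.575. No paired analysis was possible because each condition has 1 library.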

Other observations

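Well-known host transcripts of microRNAs outside the 50 were described by a separate list, of which 33 of 39 genes were in the table. In miR-9-LOF over Ctrl 0 rose and 4 fell, with a median log2 change of -0.35 over 25 tested. They were Igf2, a growth factor gene (42.5 RPKM in miR-9-LOF and 77.2 in Ctrl, ratio 0.550, 0.524 to 0.576), the condensin gene Smc4 (6.14 and 9.75 RPKM, ratio 0.630, 0.560 to 0.708), the guidance ligand gene Slit2 (15.3 and 24.7 RPKM, ratio 0.618, 0.589 to 0.648) and the ubiquitin ligase gene Huwe1 (9.93 and 15.6 RPKM, ratio 0.635, 0.605 to 0.668). Over 28 tested in TGFB1 + miR-9-LOF over TGFB1 the median was -0.16 and 1 fell, Igf2 (ratio 0.649, 0.621 to 0.677). Over 27 tested in TGFB1 over Ctrl the median was -0.01 and 1 fell, the semaphorin gene Sema3f (9.96 RPKM in TGFB1 and 19.9 in Ctrl, ratio 0.4998, 0.458 to 0.545). Over 25 tested in TGFB1 + miR-9-LOF over miR-9-LOF the median was 0.09. The pantothenate kinase gene Pank3 rose (ratio 2.01, 1.69 to 2.41) and Sema3f fell (ratio 0.615, 0.549 to 0.689). Over all symbols, 2.06% rose and 1.48% fell in TGFB1 + miR-9-LOF over TGFB1. The shares were 2.68% and 2.92% in TGFB1 over Ctrl, and 7.13% and 2.48% in TGFB1 + miR-9-LOF over miR-9-LOF.

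The letters ACCAAAG, which pair with the seed of miR-9-5p, were found in 0 of the 40 hairpins on either strand, against 1.29% of 1005 hairpins in the RefSeq table. A run of 4 blocks of 3 or more G with gaps of 1 to 7 bases, the usual G-quadruplex pattern, was found on either strand in 1 (Mir1894), which is 2.5% against 1.99%. The GC content of the 40 hairpins had a median of 58.1% (31.2% to 82.9%), against 51.7% over all 1005.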
